A study of Rattus norvegicus with 12 samples.

Results

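The genes described here are 10 rat liver cytochrome P450 genes of family 2 that lie outside the 2b and 2c groups: Cyp2d1, Cyp2d2, Cyp2d3, Cyp2d4, Cyp2d5, Cyp2e1, Cyp2j3, Cyp2j4, Cyp2f4 and Cyp2t1. They were found as every probe set annotated to 1 of these genes or only to these genes, which gave 11 of 31042 probe sets, for 10 of the 14863 genes that the array's annotation names. Cyp2d4 and Cyp2j3 each had a pair of probe sets, and 1 probe set is shared by Cyp2d5 and Cyp2d1. Of the 11, 11 passed the filter on dim probe sets, which left 21729 probe sets for testing.

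Liver RNA of 12 adult male Sprague-Dawley rats, 10 weeks old, was hybridised to 12 Affymetrix whole-genome rat arrays, 1 liver per array. Gavage was repeated every 24 h and exposure lasted 72 h. The 4 groups of 3 rats were myclobutanil (300 mg/kg/day), propiconazole (300 mg/kg/day), triadimefon (175 mg/kg/day) and control, and the labels do not say what controls received. The 3 compounds are triazole fungicides, made to block a fungal P450. The labels give no genetic alteration, and the animals are separate, so the p-values measure the spread between rats.

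P450 enzymes of the endoplasmic reticulum insert 1 atom of oxygen into a substrate, with electrons passed on by the reductase Por. Cyp2e1 oxidises ethanol, acetone and other small molecules and is known for its expression around the central vein of the liver lobule. The Cyp2d enzymes of the rat are relatives of human CYP2D6 and oxidise many basic drugs. Cyp2j enzymes make epoxides of arachidonic acid, and Cyp2f4 is known in the rat for naphthalene oxidation in the lung. The Cyp2d genes are commonly described as constitutive rather than induced by drugs.

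The deposited values are scores per probe set that behave like logarithms, but their base and centring are not given, so differences are in score units and are not converted to folds. A level of 1 probe set is not set against that of another. A probe set was called where the limma p, adjusted by Benjamini-Hochberg over all 21729 tested, was under 0.05. Bulk RNA cannot tell fewer cells of a type from less RNA per cell.

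The upstream sequences of the genes that carried calls, and of the Cyp2d genes whose signals cannot be fully separated, are shown to let their likeness be seen. Each is the 250 bases before the annotated start in RefSeq, build GRCr8, and all 10 genes matched by symbol. Capitals mark TATAAA, the TATA box letters, and a direct repeat of GGNCA with any 2 bases between the copies, an arrangement bound by HNF4-type receptors. Both were searched on both strands, so TTTATA is TATAAA read on the other strand, and both were chosen after the sequences had been seen, the repeat in a looser form than the one first searched. The Cyp2e1 window is chr1:205269717-205269966 on the plus strand and the Cyp2t1 window is chr1:91575260-91575509 on the plus strand. The Cyp2d windows are on the minus strand, at chr7:115771822-115772071 for Cyp2d4, chr7:115784488-115784737 for Cyp2d5, chr7:115793431-115793680 for Cyp2d1 and chr7:115802143-115802392 for Cyp2d3.
Cyp2e1: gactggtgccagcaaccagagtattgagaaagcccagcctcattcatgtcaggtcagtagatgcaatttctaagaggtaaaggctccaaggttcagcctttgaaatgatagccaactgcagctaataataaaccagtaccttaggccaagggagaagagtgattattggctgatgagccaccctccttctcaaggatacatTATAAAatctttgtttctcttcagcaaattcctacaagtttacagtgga
Cyp2t1: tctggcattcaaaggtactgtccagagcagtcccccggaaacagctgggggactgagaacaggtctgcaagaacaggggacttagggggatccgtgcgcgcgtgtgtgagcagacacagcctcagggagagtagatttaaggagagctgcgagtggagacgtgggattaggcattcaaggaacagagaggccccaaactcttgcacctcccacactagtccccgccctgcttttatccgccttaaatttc
Cyp2d4: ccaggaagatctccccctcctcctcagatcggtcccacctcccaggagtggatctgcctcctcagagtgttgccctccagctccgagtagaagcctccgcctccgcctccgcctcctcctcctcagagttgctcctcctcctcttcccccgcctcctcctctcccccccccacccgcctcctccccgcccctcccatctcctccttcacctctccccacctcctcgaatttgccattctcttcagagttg
Cyp2d5: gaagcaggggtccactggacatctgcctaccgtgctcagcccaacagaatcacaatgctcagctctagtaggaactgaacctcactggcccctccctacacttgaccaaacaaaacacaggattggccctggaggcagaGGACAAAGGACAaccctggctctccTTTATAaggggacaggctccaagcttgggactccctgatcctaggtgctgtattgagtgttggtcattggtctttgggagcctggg
Cyp2d1: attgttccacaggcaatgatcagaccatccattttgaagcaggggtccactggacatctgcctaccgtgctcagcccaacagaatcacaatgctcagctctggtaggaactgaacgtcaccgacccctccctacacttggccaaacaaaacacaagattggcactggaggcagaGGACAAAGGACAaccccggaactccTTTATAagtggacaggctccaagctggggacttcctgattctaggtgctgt
Cyp2d3: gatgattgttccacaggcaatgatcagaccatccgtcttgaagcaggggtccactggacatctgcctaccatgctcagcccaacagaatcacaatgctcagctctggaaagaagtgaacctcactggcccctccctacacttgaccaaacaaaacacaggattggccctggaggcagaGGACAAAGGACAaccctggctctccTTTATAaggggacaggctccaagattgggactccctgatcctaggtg

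TATAAA stood in the windows of 4 of the 10 genes, Cyp2d1, Cyp2d3, Cyp2d5 and Cyp2e1, against 12.9% of 33469 windows of the same length. The direct repeat stood in 3 of the 10, Cyp2d1, Cyp2d3 and Cyp2d5, against 1.57% of all windows. These 3 windows are near copies of each other: Cyp2d5 and Cyp2d3 were identical at 97.2% of 211 aligned bases, Cyp2d5 and Cyp2d1 at 93.5% of 215, and Cyp2d1 and Cyp2d3 at 91.9% of 246. Their repeats are therefore not separate observations. In the gene order on chromosome 7, Cyp2d5, Cyp2d1, Cyp2d3 and Cyp2d2 follow each other directly. Cyp2f4 lies next to Cyp2t1 on chromosome 1, and Cyp2j4 next to Cyp2j3 on chromosome 5. Transcripts of such near-identical genes can bind each other's probes, so the Cyp2d1, Cyp2d3 and Cyp2d5 values are uncertain as to gene, and no probe sequences were used here to settle it.

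Array myclobutanil 1 stood apart from the others. The median of its deposited scores was 0.157, where the remaining 11 arrays had 0.0182 to 0.0552. Its correlation with each of the rest had a median of 0.927, where theirs were 0.962 to 0.982. The 3' minus 5' difference of the actin control probe sets, a sign of RNA integrity, was 0.646 to 0.928 with myclobutanil, 0.556 to 0.737 with propiconazole, 0.675 to 1.06 with triadimefon and 0.487 to 0.890 in controls. Hepatocyte markers were at list means of 3.39 to 3.57 with myclobutanil, 3.58 to 3.61 with propiconazole and 3.54 to 3.585 with triadimefon, against 3.54 to 3.56 in controls. Alb, 1 of the 11 tested, scored 4.03 on all 12 arrays, a value fixed by quantile normalization, so it could not show a change. With myclobutanil 8 of the 11 were below 0 and 2 above, with an unadjusted limma p under 0.05 for 2 lower and 1 higher. In the Kupffer cell and macrophage list 5 of 9 tested genes were called lower with myclobutanil, against 0.787% of all tested probe sets. The means of this list were 0.814, 0.278 and 0.237 on the 3 myclobutanil arrays against 1.09 to 1.255 on control arrays. Its defining gene Clec4f averaged 0.895 with myclobutanil and 2.25 in controls, and Cd5l averaged 0.584 and 1.90. Of the other marker lists, myclobutanil lowered 1 of 7 endothelial genes, Kdr, and of 8 stellate cell genes it lowered Lrat and raised Rgs5. Propiconazole lowered Kdr, Tek and Lrat and raised the hepatocyte gene Apoa1, and triadimefon changed 0 marker genes by limma adjusted p, while Apoa1 among others had an unadjusted p under 0.05. On this scale a 0 does not mean absence, so no marker could be called absent, and the part of this shift in the results below was not tested.

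Myclobutanil lowered 3 of the 11 probe sets, those of Cyp2t1, Cyp2e1 and 1 of the Cyp2d4 pair, and raised 0 of them. Over all tested probe sets 1.82% were called with myclobutanil, 0.787% as lower and 1.03% as higher. By the unadjusted limma p under 0.05, 8 of the 11 differed, 7 of them lower, against 21.1% and 11.9% of all. The median difference over the 11 was -0.351, against -0.0136 over all tested. Propiconazole lowered 1 of the 11, Cyp2t1, against 1.43% of all called and 0.621% called lower, and 4 of the 11 had an unadjusted p under 0.05, against 14.5% of all. The median with propiconazole was -0.190 over the 11 and -0.0123 over all. With triadimefon limma called 0 of the 11, against 0.769% of all, while 4 had an unadjusted p under 0.05, against 13.4% of all. For triadimefon limma with array weights called 3 of the 11, where it called 1028 of all 21729. The estimation of the array weights stopped before it converged, which limits every value given with array weights here and below. The median with triadimefon was -0.154 over the 11 and -0.0128 over all. The comparisons with control share the same 3 control arrays.

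**Figure D1:**
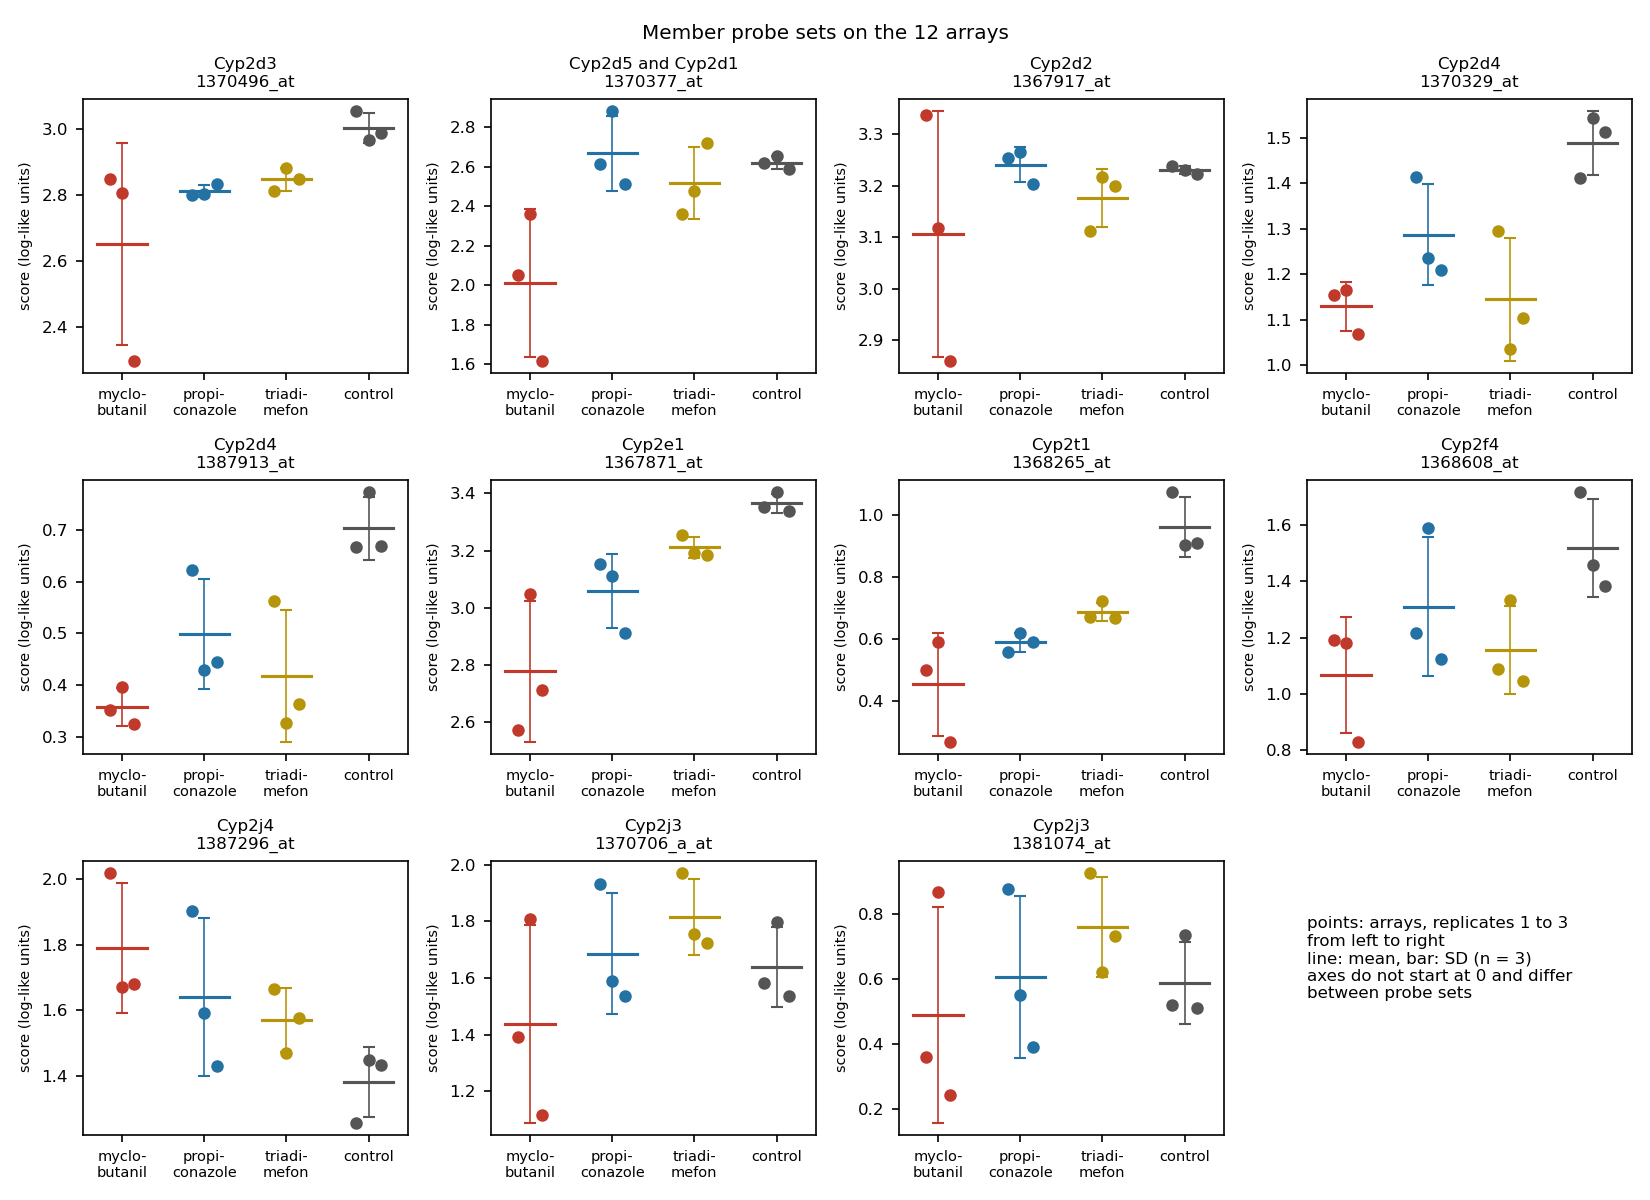
Score of each of the 11 probe sets (y axes, log-like units, not starting at 0) on the 3 arrays of each group, with the mean as a line and the SD as a bar (n = 3). Cyp2e1 and Cyp2t1 had their lowest mean with myclobutanil (2.78 and 0.452) and their highest in controls (3.365 and 0.961), and Cyp2j4 had its highest mean with myclobutanil (1.79).

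Cyp2e1, the ethanol-oxidising enzyme, fell with myclobutanil. Its scores were 2.57, 3.05 and 2.71 on the myclobutanil arrays, 3.15, 3.11 and 2.91 with propiconazole, 3.25, 3.19 and 3.19 with triadimefon, and 3.35, 3.40 and 3.34 in controls. All 9 treated arrays were below all 3 control arrays, and myclobutanil 1, the array that stood apart, was the lowest of the 12, while on the deposited values myclobutanil 3 was (2.42, against 2.74 on myclobutanil 1). The difference from control was -0.588 ± 0.107 with myclobutanil (SE, limma adjusted p = 0.0253), -0.306 ± 0.107 with propiconazole (adjusted p = 0.212) and -0.154 ± 0.107 with triadimefon (adjusted p = 0.578). Only the first passed the test. With median centring the propiconazole and triadimefon differences were -0.575 and -0.381, and on the deposited values -0.591 and -0.392, still not called. Without myclobutanil 1 the difference was -0.479 (limma adjusted p = 0.0316). The call was lost when only the arrays of the 2 groups were fitted (limma adjusted p = 0.186), without control 1, 2 or 3 (adjusted p = 0.0858, 0.0931 and 0.1004) and without myclobutanil 3 (0.0738), and the difference was -0.921 with median centring, -0.899 on the deposited values and -0.368 with array weights, each still called.

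Cyp2t1, a member of the cluster of family 2 genes on chromosome 1, fell with myclobutanil and with propiconazole. It scored 0.499, 0.590 and 0.268 with myclobutanil, 0.557, 0.618 and 0.589 with propiconazole, 0.669, 0.720 and 0.667 with triadimefon, and 1.07, 0.902 and 0.909 in controls. No treated array reached the lowest control array, and the propiconazole and triadimefon arrays each lay close together. The difference was -0.508 ± 0.079 with myclobutanil (SE, limma adjusted p = 0.0133), -0.373 ± 0.079 with propiconazole (adjusted p = 0.0456) and -0.275 ± 0.079 with triadimefon (adjusted p = 0.161). The myclobutanil call was lost without control 1 (limma adjusted p = 0.0552) or control 3 (0.0542) and when only the arrays of the 2 groups were fitted (0.167). The propiconazole call lay just inside the threshold: it was lost without any 1 control, propiconazole or triadimefon array (limma adjusted p of 0.0692 to 0.160), with median centring (0.0627), on the deposited values (0.0548), without the dim filter (0.0623) and with the replicate number as a block (0.0781), and it was kept without any 1 myclobutanil array (0.0148 to 0.0373).

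Cyp2d4, a Cyp2d enzyme also known from rat brain, was read by 2 probe sets that gave differences of like size, of which 1 passed the test. The called probe set, 1387913_at, scored 0.352, 0.396 and 0.324 with myclobutanil, 0.622, 0.430 and 0.445 with propiconazole, 0.562, 0.328 and 0.364 with triadimefon, and 0.667, 0.772 and 0.669 in controls. Every treated array was below every control array, with propiconazole 1 and triadimefon 1 closest to the controls, but on the deposited values propiconazole 1 (0.624) was above control 1 (0.613). Its difference with myclobutanil was -0.345 ± 0.072 (SE, limma adjusted p = 0.0407). The second probe set, 1370329_at, scored 1.15, 1.17 and 1.07 with myclobutanil, 1.41, 1.24 and 1.21 with propiconazole, 1.30, 1.04 and 1.10 with triadimefon, and 1.41, 1.54 and 1.51 in controls. Its difference with myclobutanil was -0.359 ± 0.086 and missed the threshold (SE, limma adjusted p = 0.0615). With propiconazole the differences were -0.204 for 1387913_at and -0.202 for 1370329_at (limma adjusted p = 0.216 and 0.308), and with triadimefon -0.285 and -0.343 (0.109 and 0.107). The call of 1387913_at was lost without control 1, 2 or 3, myclobutanil 3, propiconazole 2 or 3, or triadimefon 2 or 3 (limma adjusted p of 0.0534 to 0.130), and in 5 other settings: median centring (0.0656), deposited values (0.0718), no dim filter (0.0502), only the arrays of the 2 groups (0.134) and the replicate block (0.0648). The other probe set was called with the 50% dim filter (limma adjusted p = 0.0492), with array weights (0.0191) and without the variance trend (0.0418).

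**Figure D2:**
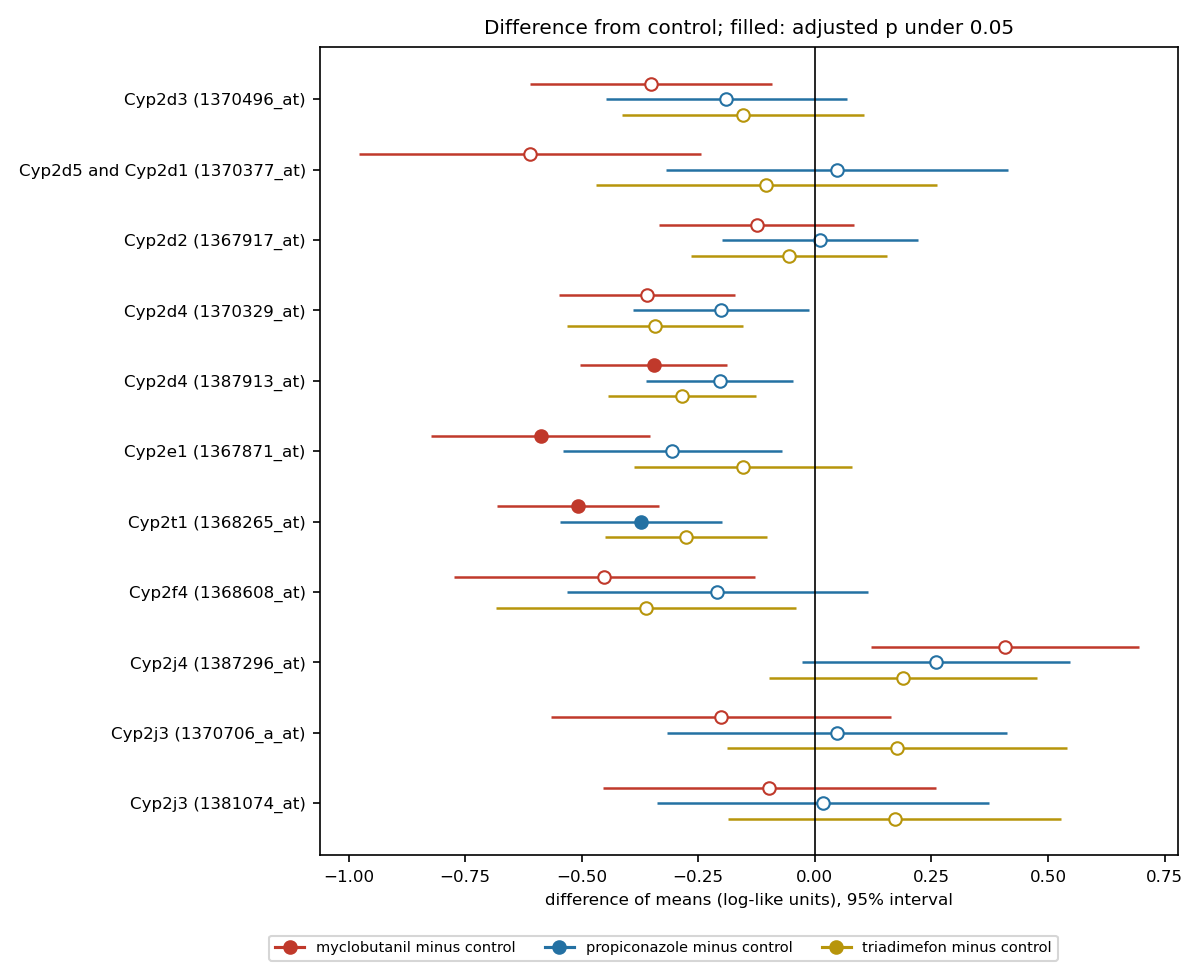
Difference of each compound from control for the 11 probe sets (x axis, log-like units), with limma 95% intervals, filled where the adjusted p was under 0.05. The filled points are Cyp2t1, Cyp2e1 and Cyp2d4 1387913_at with myclobutanil (-0.508, -0.588 and -0.345) and Cyp2t1 with propiconazole (-0.373).

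The remaining Cyp2d probe sets held no call. The probe set shared by Cyp2d5 and Cyp2d1 scored 2.05, 2.36 and 1.62 with myclobutanil, 2.62, 2.88 and 2.51 with propiconazole, 2.36, 2.48 and 2.72 with triadimefon, and 2.62, 2.66 and 2.59 in controls. The myclobutanil arrays were all below the controls and spread over 0.744, against 0.0700 among controls, while the other 2 compounds overlapped the controls. On the deposited values its triadimefon arrays (2.40 to 2.57) were also below the controls (2.59 to 2.92), which spread more there. The difference with myclobutanil was -0.611 ± 0.167 and missed the threshold (SE, limma adjusted p = 0.0841). It was called with median centring (-0.790, limma adjusted p = 0.0496) and without myclobutanil 2 (-0.794, 0.0245), and was -0.348 with array weights (0.162). Cyp2d3 scored 2.85, 2.80 and 2.30 with myclobutanil, 2.80, 2.80 and 2.83 with propiconazole, 2.81, 2.88 and 2.85 with triadimefon, and 3.05, 2.96 and 2.99 in controls. On these normalized scores all 9 treated arrays were below the controls, but on the deposited values myclobutanil 1 (3.08) was above control 1 and control 2 (2.98 and 3.01). The differences were -0.351, -0.190 and -0.154 for the 3 compounds in that order (limma adjusted p = 0.132, 0.503 and 0.617). They were -0.567, -0.363 and -0.307 with median centring and -0.545, -0.379 and -0.318 on the deposited values, none called, and the first was -0.176 without myclobutanil 3. Cyp2d2, the rat enzyme that oxidises debrisoquine, scored 3.34, 3.12 and 2.86 with myclobutanil and lay between 3.11 and 3.27 on the other treated arrays, against 3.22 to 3.24 in controls. Its myclobutanil arrays fell on both sides of the controls, and its difference was -0.125 ± 0.096 (SE, limma adjusted p = 0.466). That Cyp2d2 difference was -0.394 with median centring, -0.372 on the deposited values, -0.238 without myclobutanil 1 and -0.0028 without myclobutanil 3. With propiconazole the differences of Cyp2d2 (0.0104) and of the Cyp2d5 and Cyp2d1 probe set (0.0478) turned below 0 with median centring (-0.245 and -0.101).

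Cyp2f4, the naphthalene-oxidising enzyme, scored 1.19, 1.18 and 0.831 with myclobutanil, 1.22, 1.59 and 1.12 with propiconazole, 1.09, 1.33 and 1.04 with triadimefon, and 1.72, 1.46 and 1.38 in controls. Myclobutanil and triadimefon arrays were below all controls, while propiconazole 2 lay among them. The differences were -0.451 ± 0.147 with myclobutanil, -0.209 ± 0.147 with propiconazole and -0.362 ± 0.147 with triadimefon (SE, limma adjusted p = 0.122, 0.560 and 0.314). None passed the test.

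The Cyp2j genes, whose enzymes act on arachidonic acid, held no call. Cyp2j4 scored 2.02, 1.67 and 1.68 with myclobutanil, 1.90, 1.59 and 1.43 with propiconazole, 1.67, 1.47 and 1.58 with triadimefon, and 1.26, 1.45 and 1.43 in controls. It was the 1 probe set of the 11 whose myclobutanil and triadimefon arrays were all above the controls. Its differences were 0.409 ± 0.131, 0.260 ± 0.131 and 0.190 ± 0.131 for myclobutanil, propiconazole and triadimefon, and none was called (SE, limma adjusted p = 0.119, 0.396 and 0.576). Cyp2j3, read by 1370706_a_at, scored 1.39, 1.81 and 1.12 with myclobutanil, 1.93, 1.59 and 1.54 with propiconazole, 1.97, 1.76 and 1.72 with triadimefon, and 1.58, 1.80 and 1.54 in controls. Every compound overlapped the controls, and the differences were -0.201, 0.0471 and 0.177 (limma adjusted p = 0.501, 0.936 and 0.692). The second Cyp2j3 probe set, 1381074_at, gave differences of -0.0978, 0.0175 and 0.171 (limma adjusted p = 0.752, 0.981 and 0.697), in the same order of compounds.

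Counted by overlap of arrays on the normalized scores, 7 of the 11 had all 3 myclobutanil arrays below all 3 controls, against 13.1% of all tested probe sets. For propiconazole the count was 4 of 11, against 15.7% of all, and for triadimefon 7 of 11, against 15.8%. The triadimefon count held Cyp2d2, whose highest triadimefon array (3.217) lay just under its lowest control (3.223). That difference was -0.0546 (limma adjusted p = 0.857). On the deposited values Cyp2d2 and Cyp2d4 1370329_at overlapped the controls with triadimefon, while the Cyp2d5 and Cyp2d1 probe set did not. In the opposite direction Cyp2j4 alone stood clear of the controls on the normalized scores, with myclobutanil (10.2% of all) and with triadimefon (12.5% of all). Of the 4 group means the myclobutanil mean was the lowest for 10 of the 11, against 33.8% of all, and the highest for 1, Cyp2j4, against 26.7%. The control mean was the highest for 6, against 36.3%. Array myclobutanil 3 was the lowest of the 12 for 8 of the 11 probe sets, against 13.3% of all. Array myclobutanil 1 was the lowest for 1 of the 11, Cyp2e1, against 32.2% of all. The counts of calls moved with single arrays, for these genes and for all probe sets alike. Of the 11, and of all 21729 beside them, limma called 3 and 670 without myclobutanil 1, 4 and 924 without myclobutanil 2, and 1, Cyp2t1, and 122 without myclobutanil 3, against 3 and 395 with all arrays. It called 0 and 90 without control 1, 1, Cyp2t1, and 83 without control 2, and 0 and 30 without control 3.

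**Figure D3:**
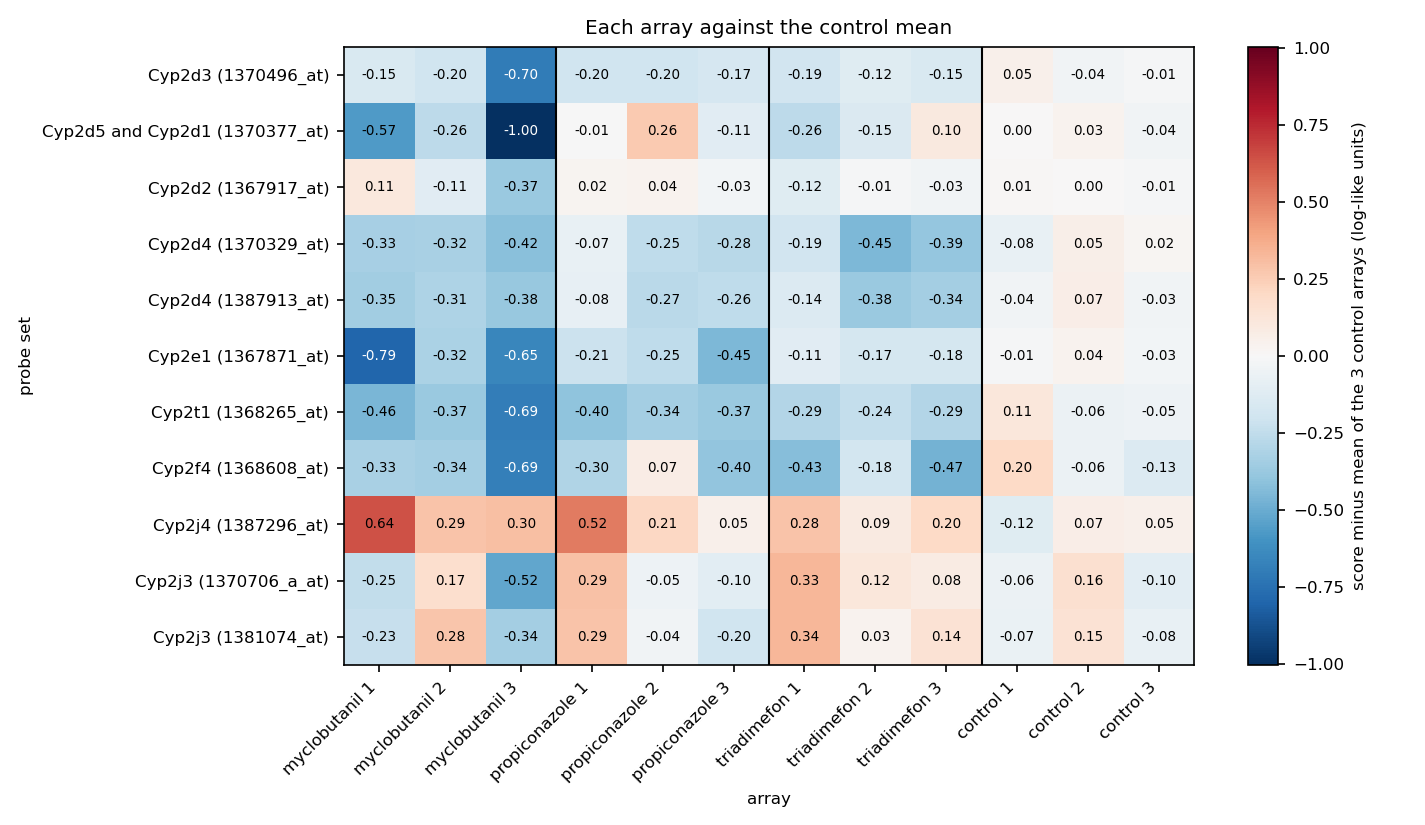
Score of each of the 11 probe sets (rows) on each of the 12 arrays (columns) minus the mean of the 3 control arrays, in log-like units, blue for lower and red for higher. The myclobutanil 3 column holds the lowest value of 8 of the 11 rows, and Cyp2j4 is above the control mean on all 9 treated arrays.

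Myclobutanil and propiconazole were given at the same dose and for the same time, and were compared directly as 1 pair of compounds. Both carry a triazole ring and a chlorinated phenyl ring, and they differ in that myclobutanil has a nitrile and a butyl chain where propiconazole has a dioxolane ring. limma called 0 of the 11 probe sets and 0% of all, while 2 of the 11 had an unadjusted p under 0.05, against 10.1% of all, and limma with array weights also called 0 of the 11. The probe set of Cyp2d5 and Cyp2d1 differed by -0.658, with a 95% interval of -1.025 to -0.292 (limma adjusted p = 0.293), and every myclobutanil array was below every propiconazole array. It was -0.380 with array weights. Cyp2e1 differed by -0.282, with an interval of -0.517 to -0.0477 (limma adjusted p = 0.456), and its groups overlapped at 3.05 with myclobutanil and 2.91 with propiconazole, but not on the deposited values (2.42 to 2.88 and 2.98 to 3.00). With array weights the Cyp2e1 difference was -0.0648. For Cyp2t1 it was -0.135 (interval -0.309 to 0.0382) and for Cyp2d4 1387913_at -0.142 (-0.299 to 0.0163), and both intervals include 0. The Cyp2t1 difference was -0.0286 with array weights and -0.0432 without myclobutanil 3, and that of Cyp2d4 1387913_at was -0.0796 without propiconazole 1. All 3 myclobutanil arrays were below all 3 propiconazole arrays for 3 of the 11, the shared Cyp2d5 and Cyp2d1 probe set and both of Cyp2d4, against 7.13% of all. The median difference over the 11 was -0.157, against -0.00594 over all. Kupffer cell list means were 0.237 to 0.814 with myclobutanil and 1.035 to 1.17 with propiconazole, and their part in these differences was not tested. Triadimefon was given at a lower dose, and its values stand above beside the others without a test against them.

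Among the partners of these enzymes, the reductase Por rose with each compound, by 0.64 with myclobutanil, 1.04 with propiconazole and 1.24 with triadimefon (limma adjusted p = 0.0362, 0.00642 and 0.00477). It was 1 of 6 tested partner genes called in each comparison, and no other partner was called. Por scored 1.44, 1.45 and 1.44 with myclobutanil, 1.74, 1.95 and 1.86 with propiconazole, 2.01, 2.24 and 1.90 with triadimefon, and 1.11, 0.665 and 0.647 in controls. Its treated arrays were all above the controls, while those of Cyp2e1, Cyp2t1 and Cyp2d4 1387913_at were all below them on the normalized scores. On the other Cyp2d4 probe set, 1370329_at, propiconazole 1 (1.4135) was above control 1 (1.4104). On the deposited values 1387913_at overlapped the controls too. Of 16 tested regulators of liver P450 genes, myclobutanil lowered 1, the corepressor Nr0b2 (-0.88, limma adjusted p = 0.0197), and propiconazole raised 1, the liver factor Foxa3 (0.62, 0.0482). Triadimefon changed 0 of the 16 by limma. An unadjusted limma p under 0.05 was seen for 3 higher and 1 lower with triadimefon, 3 higher and 2 lower with myclobutanil, and 2 higher and 2 lower with propiconazole. Neither called regulator was particular to 1 compound. On all arrays of all 3 compounds Nr0b2 was below the controls (0.319 to 0.747, against 0.996 to 1.69). Foxa3 was above them on all of these arrays (0.390 to 0.895, against 0.0213 to 0.228). Hnf4a, a receptor that binds direct repeats of the kind shown, differed by -0.0223 with myclobutanil (limma adjusted p = 0.929). Its arrays overlapped the controls with all 3 compounds, and any part of Hnf4a in the results was not tested.

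Genes placed around the central vein, where Cyp2e1 is known to be expressed, were set beside it. Of 13 tested pericentral genes myclobutanil lowered 2 and raised 0: Gulo, the last enzyme of vitamin C synthesis, by -0.99, and Tcf7l2, a Wnt pathway factor, by -0.51 (limma adjusted p = 0.0114 and 0.0421). Of the 13, 11 were below 0, with a median of -0.240 against -0.0136 over all tested, and list means were 1.13, 1.24 and 1.12 on the myclobutanil arrays against 1.48 to 1.496 on control arrays. Gulo scored 1.27, 1.69 and 1.10 with myclobutanil and 2.45, 2.24 and 2.33 in controls, with myclobutanil 3 again the lowest of those 6 arrays. Propiconazole lowered 1 pericentral gene, Oat, an enzyme of ornithine breakdown (-0.71, limma adjusted p = 0.0322), with a list median of -0.172. All 13 were below 0 with propiconazole, 6 of them at an unadjusted limma p under 0.05. Triadimefon changed 0 of the 13 by limma, with 4 lower at an unadjusted p under 0.05 and a list median of -0.135. With triadimefon 11 of the 13 were below 0. The pericentral list means were 1.19 to 1.29 with propiconazole and 1.26 to 1.38 with triadimefon. The lower list means were thus common to all 3 compounds. The called genes were not particular to 1 compound. Gulo and Tcf7l2 were also below every control with propiconazole and triadimefon (at most 2.14 and 0.820, against at least 2.24 and 1.01). Oat was below every control with myclobutanil as well (1.53 to 1.90, against 2.12 to 2.37), but overlapped them with triadimefon (1.78 to 2.16). Of 16 periportal genes, from the other end of the lobule, myclobutanil also lowered 2, the gluconeogenic enzyme Fbp1 (-0.37) and the histidine-degrading enzyme Hal (-0.58), with a list median of -0.118 (limma adjusted p = 0.0287 and 0.0442). Of these 16, 13 were below 0 with myclobutanil. The periportal list means were 1.96, 1.97 and 1.70 on the myclobutanil arrays, also below the 1.99 to 2.15 on control arrays. The periportal list means were 1.997 to 2.14 with propiconazole and 1.98 to 2.11 with triadimefon, and both overlapped the controls. With myclobutanil the list means of both zones were thus below the controls. With propiconazole and triadimefon only the pericentral ones were. The part of the lobular zone in the calls was not tested. Propiconazole raised 1 periportal gene, the urea cycle enzyme Asl (0.78, limma adjusted p = 0.00661), and triadimefon changed 0 by limma, where the unadjusted p was under 0.05 for 2 that were higher and 3 that were lower.

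**Figure D4:**
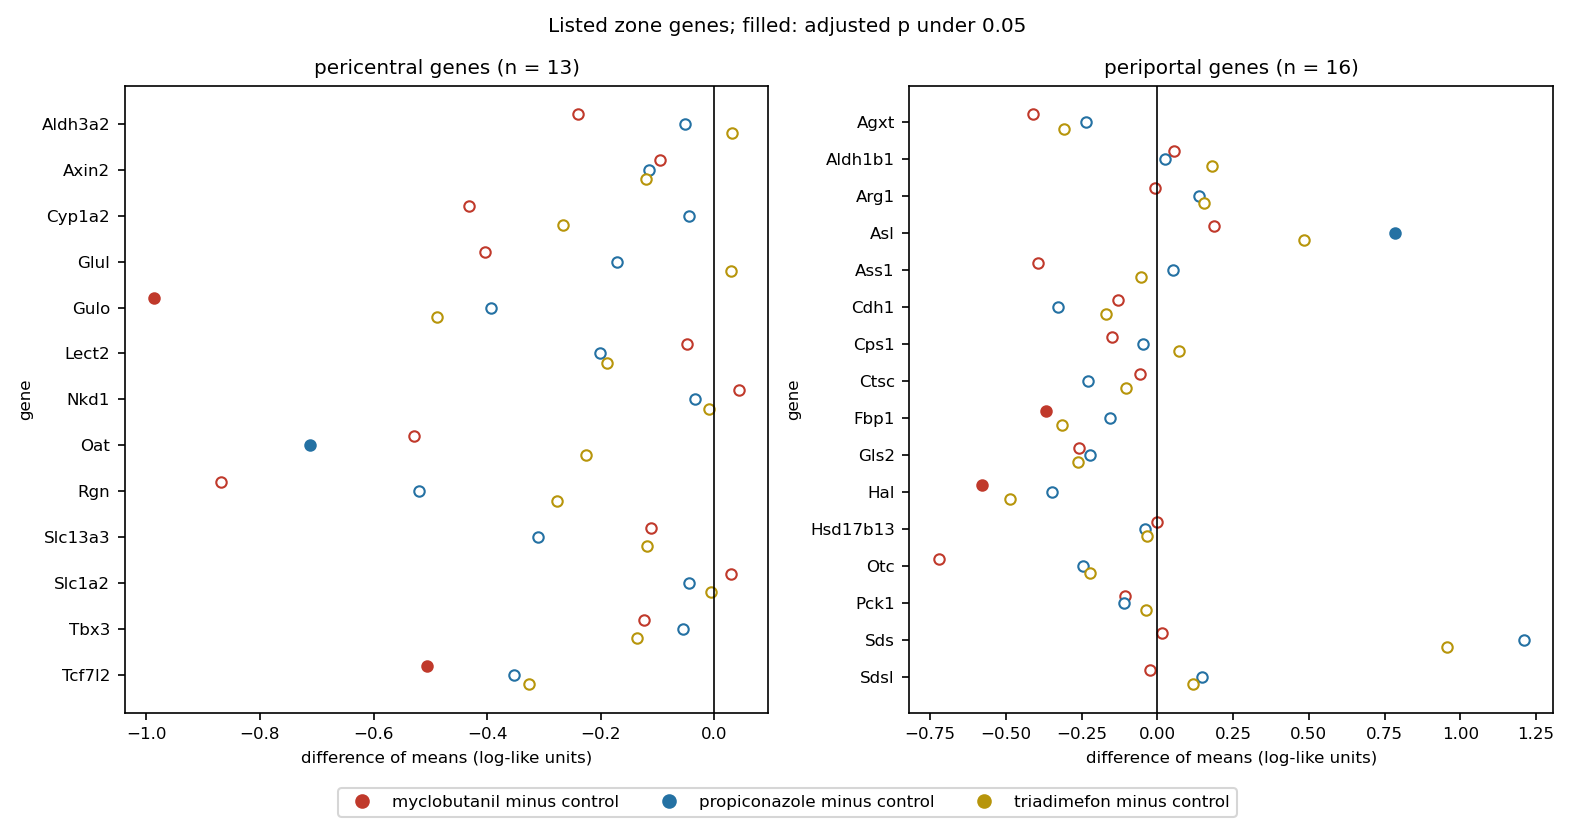
Difference from control (x axes, log-like units) of the 13 pericentral and 16 periportal genes tested, for the 3 compounds, filled where the limma adjusted p was under 0.05. Gulo and Tcf7l2 were called lower with myclobutanil and Oat with propiconazole among pericentral genes, and Fbp1 and Hal lower with myclobutanil and Asl higher with propiconazole among periportal genes.

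Of 14 tested genes of alcohol, aldehyde and ketone body metabolism, the substrates' pathway of Cyp2e1, 1 was called higher with each compound and 0 were called lower. The called gene was Aldh1a1, a retinal and aldehyde dehydrogenase. It rose by 0.9999 with myclobutanil, 1.13 with propiconazole and 0.93 with triadimefon (limma adjusted p = 0.0114, 0.00661 and 0.0146). The unadjusted limma p was under 0.05 for 2 higher and 2 lower with myclobutanil, 1 higher and 0 lower with propiconazole, and 2 higher and 2 lower with triadimefon. Aldh2 scored 2.09, 2.53 and 2.13 with myclobutanil and 2.25 to 2.73 with triadimefon, all below the controls (2.83 to 2.91). With propiconazole Aldh2 overlapped the controls (2.55 to 2.88). Of 16 tested genes that make or break down arachidonic acid epoxides and related products, the pathway of the Cyp2j enzymes, myclobutanil lowered 1, the cyclooxygenase Ptgs1 (-0.40, limma adjusted p = 0.0466). Propiconazole and triadimefon changed 0 of the 16 by limma. The unadjusted p was under 0.05 for 2 higher and 3 lower with propiconazole, and for 1 higher and 1 lower with triadimefon. No gene of these 6 lists was called between myclobutanil and propiconazole, where the unadjusted limma p was under 0.05 for 0 to 2 higher and 1 to 4 lower genes of each list, against 10.1% of all probe sets.

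For the 3 genes with a call, the genes with the most similar profiles over the 12 arrays were found by the root mean square distance between profiles centred on their own means, over 11841 genes. For Cyp2e1 they were Adgrf5 (distance 0.0940), the paraoxonase Pon1 (0.0971) and the urocanase Uroc1 (0.0987), against a median distance of 0.255 over all genes. For Cyp2t1 they were Fahd2a (0.0682), Coq10a (0.0801) and the aminopeptidase Enpep (0.0806), against 0.217. For Cyp2d4, on 1370329_at, which was not itself called, they were Ranbp10 (0.0682), Fbp1 (0.0716) and Slc46a3 (0.0776), against 0.183. Fbp1 is thus also the periportal gene called lower with myclobutanil. These distances are descriptions over arrays that share the same 4 groups.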

How the data were processed

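Liver RNA of 12 rats was measured on 12 arrays, 1 rat each, per the labels' protocols. The deposited values are a score per probe set for 31099 probe sets, log-like by their range. How the authors summarised and normalized the probes, and the log base, is not given in the sources used here. The plan assumed log2 values, and the scores were used without conversion. After 57 control probe sets were left out, arrays were quantile normalized and the dimmest 30% by mean score (9313) were dropped. Each of the 21729 left was fitted with limma 3.58.1 in R 4.3.3 on 4 group means, with 8 residual degrees of freedom, a variance trend and Benjamini-Hochberg adjustment per comparison, and the script was tested on simulated data. The number of arrays limits the precision.

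Probe sets were named from the platform annotation, which can be old: 20826 had 1 gene, 436 several and 9780 none, with symbols updated through RefSeq of GRCr8. The members and gene lists were chosen with earlier results of these data known. Named were all members, from each list up to 4 called genes per comparison with the smallest p (1 probe set a gene, that with the highest mean score) or up to 2 where none was called, and the 3 most similar genes of each called member. Cd5l, Hnf4a and Aldh2 are named outside that rule, after their values were seen. Of 160 list entries 134 were tested. Alternatives were other scaling, filters, sample sets, array weights, a replicate block, no variance trend and leaving out each array. Figures used matplotlib.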

Additional observations from a re-analysis of the deposited data

How the results depend on the processing

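Of 880 refits of single member probe sets, 819 kept their direction and side of the threshold, 34 lost a call, 8 gained one and 19 changed sign. The calls lost and gained stand beside each gene. Sign changes were in values that had missed the threshold. With array weights they were Cyp2j3 1370706_a_at (0.0543 with myclobutanil against control, 0.0123 against propiconazole) and 1381074_at (0.173 and 0.154). With propiconazole against control they were Cyp2d5 and Cyp2d1 (-0.101 with median centring, -0.117 on deposited values) and Cyp2d2 (-0.245 and -0.262). Leaving out 1 array gave ranges across 0 with propiconazole against control for Cyp2d5 and Cyp2d1 (-0.0586 to 0.126), Cyp2d2 (-0.00364 to 0.0301), Cyp2j3 1370706_a_at (-0.0763 to 0.126) and 1381074_at (-0.118 to 0.125). It did so for 1381074_at with myclobutanil against control (-0.286 to 0.0253), and between both compounds for 1381074_at (-0.303 to 0.0207) and Cyp2d3 (-0.254 to 0.0149). The causes were not tested.

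The count over all probe sets for myclobutanil, propiconazole, triadimefon and the matched dose pair was 395, 311, 167 and 0. It was 8, 648 and 621 for the compounds against control with only the arrays of the 2 groups, and 1668, 1313, 1028 and 343 with array weights, whose estimation stopped before it converged. For the matched dose pair it was 1 with median centring, 1 on deposited values, 2 with the 50% filter and 5 without the variance trend. Leaving out 1 array gave 30 to 924, 36 to 969, 6 to 611 and 0 to 29. Of the 11 members, 0 were called for myclobutanil with only the arrays of the 2 groups, 3 for triadimefon with array weights, and 0 for propiconazole with median centring, on deposited values, without the dim filter and with the replicate block. Leaving out 1 array gave 0 to 4 for myclobutanil, 0 to 1 for propiconazole, and 0 for triadimefon and for the pair. Propiconazole raised 158 and lowered 63 with median centring, against 176 and 135.

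Replicate numbers are not stated to pair the rats. In the values, 2 of 12 same-numbered pairs had a correlation of deviations over 0.1 (-0.494 to 0.481), and 3 of 12 arrays correlated best with their own number. With 3 arrays a group these correlations cannot settle whether the numbers pair the rats. With the replicate number as a block, 180, 121 and 87 probe sets were called for the compounds against control, and 2 members for myclobutanil.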
